A study of Bos taurus with 6 samples.

Results

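The genes described here make cholesterol or sense it: ACAT2, HMGCS1, IDI1, FDPS, FDFT1 and SQLE, enzymes on the route from acetyl-CoA to sterols, and INSIG1, the membrane protein that holds the pathway's activator in check. Members were taken as the probe sets whose array annotation gives exactly 1 of these 7 symbols. That gave 9 of 24016 tested probe sets for 6 of the 7 genes, with 3 probe sets for FDFT1, 2 for HMGCS1 and 1 each for ACAT2, FDPS, SQLE and INSIG1. Where a gene has several, they are called set 1, 2 and 3 in the order of their probe set names. No probe set carried the symbol IDI1 alone, so this isomerase was not analysed here. Each of the 6 measured genes matched a current bovine gene record by its identifier.

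Expression was measured in longissimus thoracis, a long back muscle that stores marbling fat, of 6 steers (castrated males) of the beef breed Japanese Black. All of them entered when 13 to 14 months old, spent 7 months on a ration set for a daily gain of 1.0 kg and ended at 20 to 21 months. The 3 supplemented steers were given 296.8 IU of oral vitamin A per kg body weight weekly, and in the 3 restricted steers this supplementation was restricted, with no dose stated. RNA of each steer was hybridised to 1 array, so replicates are separate animals. Restricted steers were 598.3 ± 11.4 days old at sampling and supplemented steers 610.0 ± 9.17 days (SD, n = 3; two-sided exact permutation p = 0.2, 0.1 being the smallest p that 3 against 3 can give).

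Cells build cholesterol from acetyl-CoA by way of mevalonate, farnesyl diphosphate and squalene. When sterols in the endoplasmic reticulum run low, the carrier SCAP brings the transcription factors called SREBPs to the Golgi, where the proteases MBTPS1 and MBTPS2 release them, and they switch on nearly every enzyme of the route together with INSIG1. When sterols are plentiful, INSIG1 and INSIG2 retain SCAP and the enzymes' genes are less active. Skeletal muscle needs sterols for its membranes, and fat cells within it store cholesterol beside triglyceride.

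The deposited values are treated as log2 and differ very little between arrays. A probe set's highest and lowest arrays were a median of 0.677 millionths of a log2 unit apart, and the step behind this narrow spread is not given in the sources used here. Differences are therefore not read as fold changes. Each steer's value is given in millionths of a deposited log2 unit above the lowest of the 6 arrays. The difference between diets is restricted minus supplemented, also given in within-group SDs, the pooled spread of steers on 1 diet for that probe set. Array medians themselves differed by 8.88 millionths, and 85.9% of probe sets ranged over less than that. Median alignment, a shift of each array to a common median, moves every difference by 2.22 millionths toward lower, and 6.96% of all probe sets were then higher in restricted steers against 48.3% as deposited. The tissue label was checked against muscle fibre markers, and all 11 measured had a mean deposited value of 9.71 or above on a table that runs from 4.81 to 12.7.

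None of the 9 probe sets passed the adjusted threshold of 0.05 for a difference between diets, and each had a limma adjusted p of 1. Across the array 1 probe set of 24016 passed, 0.00416% of those tested. At an unadjusted limma p under 0.05 there were 0 of the 9, where the share of all probe sets was 4.08%. The values of 8 probe sets were on the higher side in restricted steers and that of FDPS on the lower. After median alignment 3 were higher and 6 lower. The median of the 6 genes, each at its probe set with the highest mean, was 0.61 SDs as deposited and -0.26 SDs after alignment. Over all 9155 genes it was -0.01 SDs as deposited and -0.74 SDs after alignment. The groups did not overlap in 1 of the 9 probe sets, ACAT2, which was higher in restricted steers. Over all probe sets they did not overlap in 8.76%, with restricted steers higher in 4.12% and lower in 4.64%. The 9 differences were also compared with exact two-sided permutation tests of single probe sets.

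**Figure D1:**
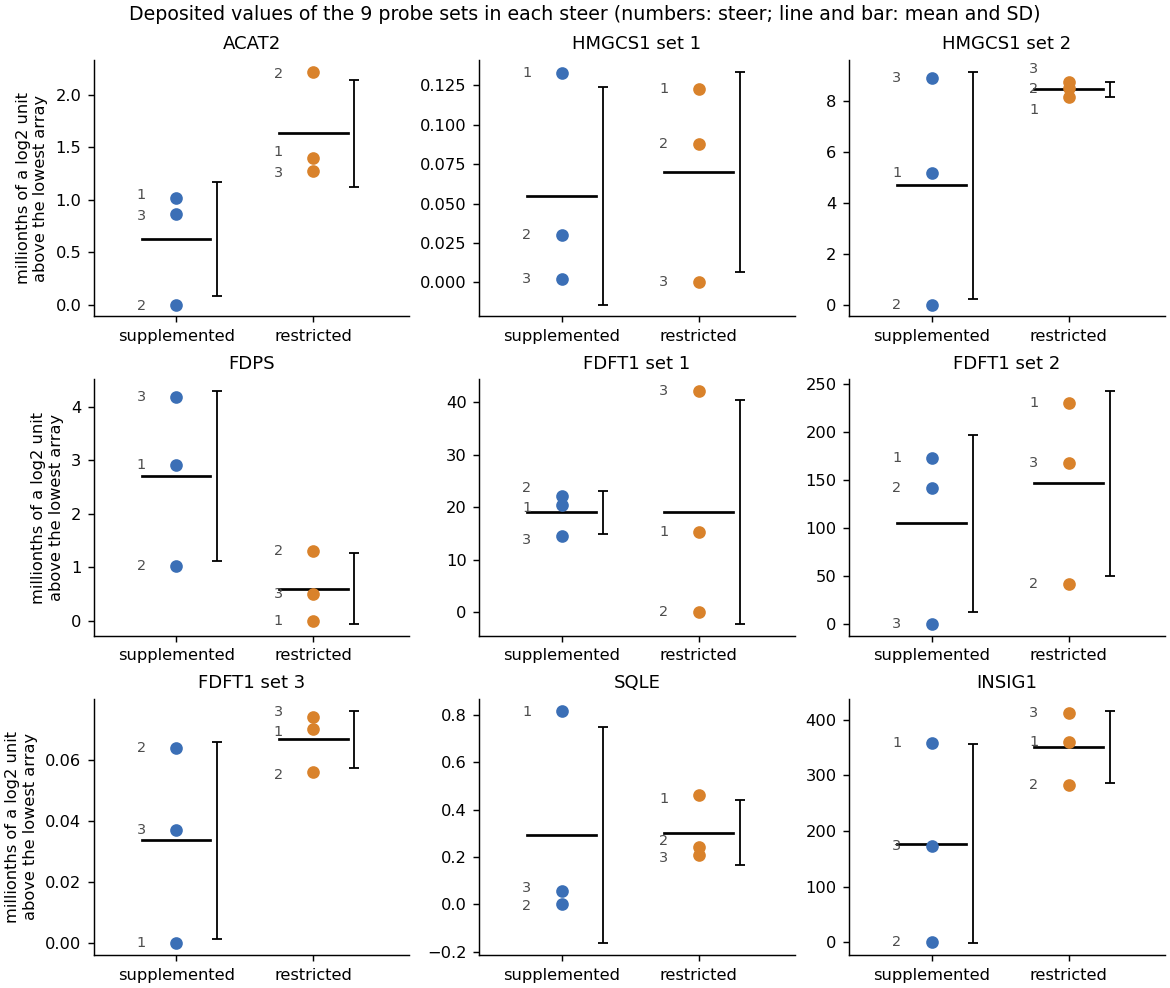
Deposited values of the 9 probe sets in the 3 supplemented (blue) and 3 restricted (orange) steers, in millionths of a log2 unit above that probe set's lowest array, on a separate linear axis per panel. Numbers beside points are steer numbers, lines are group means and bars 1 SD. The groups of ACAT2 do not overlap, and supplemented steer 2 is lowest in ACAT2, HMGCS1 set 2, SQLE and INSIG1.

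The route begins with ACAT2, the cytosolic thiolase that joins acetyl-CoA molecules into acetoacetyl-CoA. It is not the cholesterol esterifying enzyme SOAT2, which has also carried that name. Its probe set (gene identifier 512044) lay 1.01, 0 and 0.864 millionths above its lowest array in supplemented steers 1 to 3 and 1.40, 2.22 and 1.28 millionths in restricted steers 1 to 3. Every restricted steer was above every supplemented one. The difference was 1.01 millionths (95% interval -0.0844 to 2.10), or 1.90 SDs, with an exact permutation p of 0.1, the smallest possible. This difference is smaller than the offset between arrays, and it was -0.38 SDs after median alignment.

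HMGCS1, the cytosolic synthase that acts after ACAT2 on the way to mevalonate, has 2 probe sets that ordered the steers differently. In set 2 of this gene (identifier 407767) supplemented steers lay 5.16, 0 and 8.89 millionths above the lowest array and restricted steers 8.14, 8.49 and 8.73. Restricted steers were tightly grouped, with an SD of 0.293 millionths against 4.46 in supplemented steers. Supplemented steer 3 was above all of them, so the groups overlapped. The difference was 3.77 millionths (95% interval -2.72 to 10.3), or 1.19 SDs (exact permutation p = 0.4). Leaving out 1 steer at a time gave from 0.93 to 2.77 SDs, the largest without supplemented steer 3 (limma adjusted p = 1). The difference was 0.29 SDs after median alignment and -1.63 SDs with quantile normalization, which left the arrays nearly all tied.

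Set 1 of HMGCS1 spanned 0.133 millionths over all arrays and had a mean below the median of all probe sets. Supplemented steers lay 0.133, 0.0300 and 0.00200 millionths above its lowest array and restricted steers 0.123, 0.0880 and 0. Both groups covered nearly the whole range, and the difference was 0.23 SDs (95% interval -2.04 to 2.51, exact permutation p = 1). Steer 3 of the restricted group was lowest in this set and the second highest in set 2.

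FDPS, which condenses isoprene units into farnesyl diphosphate at the branch point between sterols and other isoprenoids, was the 1 gene on the lower side in restricted steers. Supplemented steers lay 2.91, 1.03 and 4.18 millionths above the lowest array of its probe set (gene identifier 281156) and restricted steers 0, 1.30 and 0.501. Restricted steer 2 was above supplemented steer 2, so the groups overlapped. The difference was -2.11 millionths (95% interval -4.60 to 0.385), or -1.74 SDs (exact permutation p = 0.2). Leaving out 1 steer at a time gave from -3.95 SDs without supplemented steer 2 (limma adjusted p = 1) to -1.35 SDs without restricted steer 1. The difference was negative in each of the 14 alternatives tried, from -3.95 to -0.82 SDs. Filters on the mean value and a variance trend cannot change it, and median alignment moves every difference lower. The -0.82 SDs came from quantile normalization, which left the arrays nearly all tied.

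FDFT1, squalene synthase, commits farnesyl diphosphate to sterols, and its 3 probe sets did not follow each other from steer to steer. In set 1 of this gene (identifier 281767) supplemented steers lay 20.5, 22.1 and 14.4 millionths above the lowest array and restricted steers 15.2, 0 and 42.1. Restricted steers held both the highest and the lowest value, around the same centre as the supplemented ones. The difference was 0.01 SDs (95% interval -2.05 to 2.06, exact permutation p = 1), with an SD of 21.3 millionths in restricted and 4.05 in supplemented steers.

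In set 2 of FDFT1 supplemented steers lay 173, 142 and 0 millionths above the lowest array and restricted steers 231, 41.4 and 168. The 2 groups overlapped over most of their ranges, and the difference was 0.44 SDs (95% interval -1.61 to 2.50, exact permutation p = 0.6). Set 3 spanned 0.0740 millionths and fell below the first quartile of probe set means. Its supplemented steers lay 0, 0.0640 and 0.0370 millionths above the lowest array and its restricted steers 0.0700, 0.0560 and 0.0740. The difference in set 3 was 1.39 SDs (95% interval -2.03 to 4.82, exact permutation p = 0.2), and -0.74 SDs after median alignment.

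SQLE, squalene epoxidase, adds the oxygen that allows squalene to close into the sterol ring. Supplemented steers lay 0.819, 0 and 0.0580 millionths above the lowest array of its probe set (gene identifier 526535) and restricted steers 0.460, 0.241 and 0.209. Supplemented steers held the highest value and the 2 lowest, with the restricted steers in between. The difference was 0.03 SDs (95% interval -2.03 to 2.09, exact permutation p = 1). Leaving out 1 steer at a time gave from -0.41 to 2.41 SDs, the largest without supplemented steer 1, the highest (limma adjusted p = 1). After median alignment the difference was -0.80 SDs.

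INSIG1 had the widest spread of the 9 probe sets. Supplemented steers lay 358.7, 0 and 173 millionths above the lowest array of this gene (identifier 511899) and restricted steers 359.7, 282 and 412. Its range of 412 millionths exceeded that of 98.5% of all tested probe sets and is far above the offset between arrays. The restricted steers were closer together, with an SD of 65.5 millionths against 179 in supplemented steers, and supplemented steer 1 fell among them.

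The difference of INSIG1 was 174 millionths (95% interval -103 to 451), or 1.29 SDs (exact permutation p = 0.2). Without supplemented steer 1 it was 2.98 SDs (limma adjusted p = 1), and without supplemented steer 2, the lowest, 0.92 SDs. INSIG1 was on the higher side in restricted steers in each of the 14 alternatives, from 0.92 to 2.98 SDs, and was at 1.28 SDs after median alignment. Those among the 14 that filter on the mean value or fit a variance trend cannot change this difference.

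**Figure D2:**
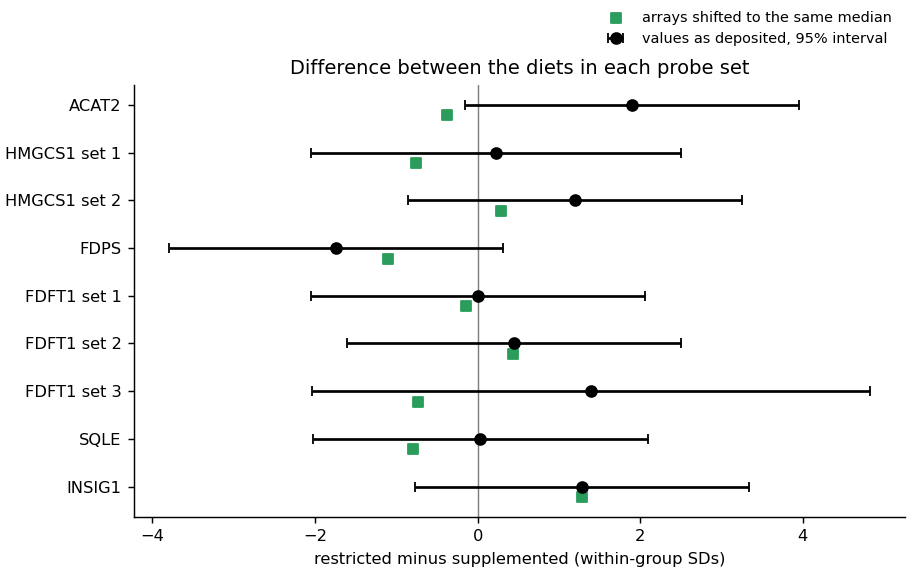
Difference between the diets, restricted minus supplemented in within-group SDs, for each of the 9 probe sets. Black points and bars are the values as deposited with their 95% interval from limma, and green squares the values after median alignment. Every interval spans 0. Squares of ACAT2, HMGCS1 set 1, FDFT1 sets 1 and 3 and SQLE lie on the other side of 0 from their points.

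Taking all 9 probe sets, FDFT1 set 1 was the 1 set with a clearly wider spread in restricted than in supplemented steers, the ratio of supplemented to restricted SD being 0.190. That ratio was 15.2 in HMGCS1 set 2, 3.40 in FDFT1 set 3, 3.35 in SQLE, 2.74 in INSIG1 and 2.41 in FDPS. In ACAT2, HMGCS1 set 1 and FDFT1 set 2 it lay between 0.955 and 1.09. With 3 steers in a group these ratios are a description of the steers sampled.

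The order of the steers was partly shared among the genes. Supplemented steer 2 had the lowest value of 4 of the 6 genes (HMGCS1, ACAT2, SQLE and INSIG1), against 16.4% of all 9154 genes that varied. Averaged over the 6 genes, each centred and scaled by its SD over the arrays, this steer stood at -1.05 SDs, and the other 5 steers between 0.03 and 0.45. FDPS and FDFT1 set 1 did not share this profile, standing at -0.39 and 0.22 SDs in that steer. The pattern was noticed after the values were seen. After median alignment, supplemented steer 2 stayed lowest in HMGCS1 and INSIG1, and restricted steer 1 became lowest in ACAT2 and SQLE as it did in 80.2% of all genes.

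**Figure D3:**
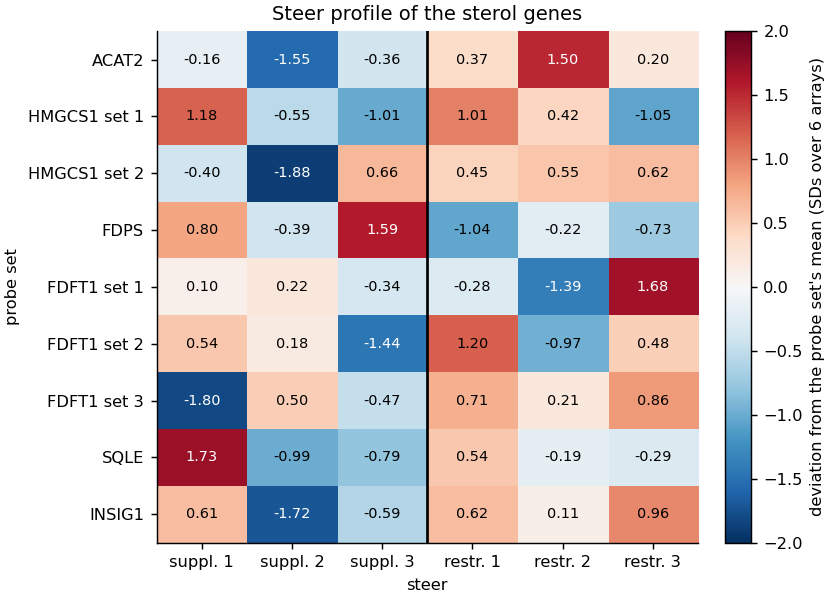
Deviation of each steer from the mean of a probe set, in SDs over the 6 arrays, with probe sets in rows and steers in columns (suppl., supplemented; restr., restricted). Blue is low and red high. Supplemented steer 2 stands at -1.88 in HMGCS1 set 2, -1.72 in INSIG1 and -1.55 in ACAT2, while the 3 FDFT1 sets differ from each other.

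Genes nearest to the averaged profile were sought by the mean absolute distance of deposited values over the 6 arrays, among the 6293 of 9155 genes that are no members and whose mean value lay above the median of all probe sets. The nearest were ATP6V0E2, an accessory subunit of the proton pump V-ATPase, at 0.312 SDs, KDELR3, a receptor that returns proteins to the endoplasmic reticulum, at 0.333 SDs, and C14H8orf33 at 0.350 SDs. EMID1 followed at 0.374, ME1 at 0.380 and CORO1B at 0.383 SDs. ME1, the cytosolic malic enzyme that supplies NADPH for lipid synthesis, was also the nearest of 48 other genes on the sterol lists, taken without that limit on the mean, followed by the lanosterol demethylase CYP51A1 at 0.396 SDs. Of the members themselves INSIG1 lay closest, at 0.429 SDs, and FDFT1 and FDPS farthest, at 0.849 and 0.857 SDs. Although INSIG1 is itself part of the average, 28 of these 6293 genes lay closer to it, and 2850 lay closer than FDPS.

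The wider pathway was described with 7 lists that hold 72 genes in all, of which 54 had a probe set of their own. None passed the adjusted threshold, each having a limma adjusted p of 1. From acetyl-CoA to farnesyl diphosphate 4 of 6 measured genes were on the higher side in restricted steers as deposited (median 0.91 SDs) and 1 of 6 after median alignment. From squalene to cholesterol 8 of 9 were higher (median 0.31 SDs), and 0 of 9 after alignment. Over all genes 4531 were higher and 4623 lower as deposited. After alignment 992 were higher and 8163 lower, with a median of -0.74 SDs. The groups did not overlap in 7 of the 54 genes, with restricted steers higher in 5 (ACAT2, LSS, NPC1, SOAT1 and ACACA) and lower in 2 (PMVK and INSIG2). These are 9.26% and 3.70% of the 54, against 4.15% and 4.59% of all 9155 genes, or 13.0% against 8.74% in either direction. The shares rest on 7 genes, were not tested and are not read as particular to the lists. After median alignment the groups overlapped in all 54 genes, and did not in 2.06% of all genes.

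Within the mevalonate steps PMVK, phosphomevalonate kinase, went with FDPS. Its supplemented steers lay 0.329, 0.194 and 0.308 millionths above the lowest array and its restricted steers 0.139, 0 and 0.0410. The groups did not overlap, and the difference was -3.01 SDs (limma adjusted p = 1), over a range smaller than the offset between arrays. After alignment PMVK was at -0.83 SDs, where the median over all genes was -0.74 SDs. MVK, mevalonate kinase, which acts just before PMVK, differed by 1.75 SDs and by -0.31 SDs after alignment. The 3 probe sets of MVK do not all run in 1 direction.

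After squalene, the cyclase LSS differed by 1.82 SDs without overlap of the groups, and its 3 probe sets do not all run in 1 direction either. CYP51A1 differed by 0.79 SDs. In it supplemented steer 2 was the lowest at 0, as in HMGCS1, INSIG1 and ACAT2, and the other 5 steers lay 0.915 to 1.17 millionths above. This range is smaller than the offset between arrays, and after alignment restricted steer 1 was the lowest. After alignment both LSS and CYP51A1 were on the lower side, at -0.72 and -0.61 SDs.

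Genes of SREBP and its control were on the lower side in 5 of 7 (median -0.69 SDs), and in 6 of 7 after alignment. With quantile normalization 4 were on the higher side and 1 on the lower, several of them from arrays that this step left nearly all tied. INSIG1 and the protease gene MBTPS2, at 0.68 SDs, were the 2 on the higher side as deposited, and MBTPS2 was at -0.73 SDs after alignment. INSIG2, the partner of INSIG1 that is not itself a main SREBP target, differed by -2.35 SDs without overlap of the groups. INSIG2 ranged over 0.0880 millionths, less than the offset between arrays, against 412 millionths in INSIG1. After alignment INSIG2 was at -0.77 SDs, where the median over all genes was -0.74 SDs. SCAP differed by -1.35 SDs, SREBF1, the activator of fatty acid synthesis, by -0.87 SDs and SREBF2, the activator of cholesterol synthesis, by -0.69 SDs. With quantile normalization SCAP and SREBF2 were both at 0.82 SDs, an identical value left by arrays that were nearly all tied. That value is not read as a reversal. The probe sets of SCAP, SREBF1 and SREBF2 do not all run in 1 direction. INSIG1 and INSIG2 thus lay on opposite sides of 0, and that contrast was not tested.

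For uptake and lysosomal release 5 of 6 genes were on the higher side (median 0.65 SDs), with 3 of 6 after alignment. NPC1, which moves cholesterol out of lysosomes, differed by 3.03 SDs (limma adjusted p = 1). Its restricted steers lay at 1.16, 1.00 and 0.909 millionths and its supplemented ones at 0.237, 0 and 0.631, without overlap. The lipoprotein receptor VLDLR differed by 0.86 SDs. After alignment NPC1 was at -0.48 SDs and VLDLR at 0.83 SDs.

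Efflux, esterification and oxysterol genes were on the higher side in 4 of 9 (median -0.08 SDs), and in 1 of 9 after alignment (median -0.78 SDs). SOAT1, which esterifies cholesterol for storage, differed by 2.30 SDs (limma adjusted p = 1) without overlap, and by -0.35 SDs after alignment. LCAT differed by -1.15 SDs and the sterol receptor NR1H3 by 1.07 SDs, with probe sets that do not all run in 1 direction. NR1H3 was at -0.71 SDs after alignment. In the isoprenoid branch 4 of 8 were higher (median 0.08 SDs), GGPS1, which draws on farnesyl diphosphate for protein prenylation, at 0.96 SDs and PDSS2 at -0.78 SDs. After alignment 0 of these 8 were higher (median -0.70 SDs), and GGPS1 was at -0.67 SDs.

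**Figure D4:**
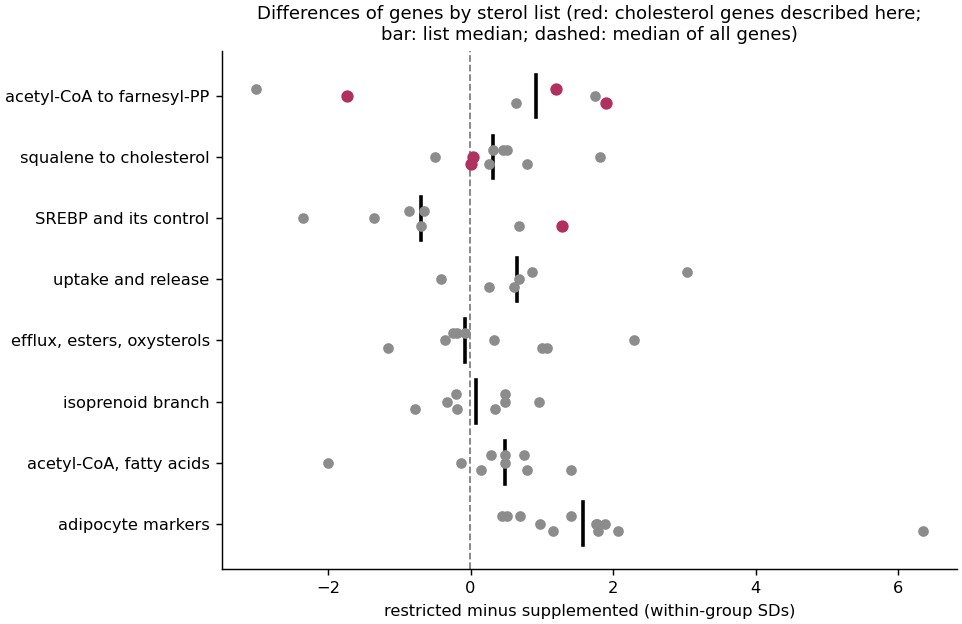
Differences between the diets for the genes of each sterol list and for adipocyte markers, restricted minus supplemented in within-group SDs, 1 point per gene. Red points are genes described in full here, black bars list medians and the dashed line the median of all genes at -0.01. The 12 adipocyte markers lie above 0 as deposited (10 after median alignment), and each sterol list spans 0.

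Supply of acetyl-CoA and fatty acid synthesis, whose genes are further SREBP targets, had 7 of 9 genes on the higher side (median 0.49 SDs), and 5 of 9 after alignment. Supplemented steer 2 was lowest in 8 of these 9, and in 7 of 9 after alignment, against 5.09% of all genes after it. SCD, the stearoyl-CoA desaturase, lay at 23336, 0 and 17256 millionths in supplemented steers and 24708, 8539 and 22790 in restricted steers. ACSS2, which makes acetyl-CoA from acetate, lay at 8548, 0 and 6885 millionths in supplemented and 10203, 4188 and 10015 in restricted steers. Restricted steer 2 was the second lowest in both, whereas in INSIG1 the second lowest was supplemented steer 3. SCD differed by 0.49 SDs and ACSS2 by 0.74 SDs. FADS2, a fatty acid desaturase, differed by -1.99 SDs over a range of 0.167 millionths, and was at -0.77 SDs after alignment. ACACA differed by 1.41 SDs without overlap of the groups. The probe sets of ACACA do not all run in 1 direction, and it was at -0.58 SDs after alignment.

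**Figure D5:**
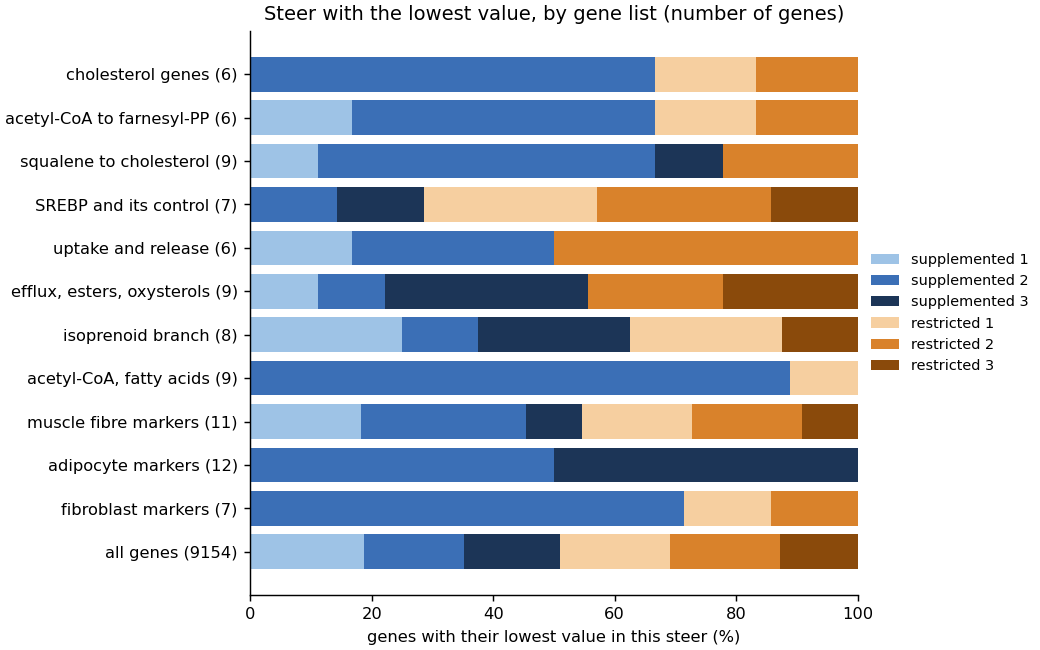
Share of genes, in percent, whose lowest deposited value was in each steer, by gene list with the number of genes in brackets. Supplemented steer 2 was lowest in 66.7% of the cholesterol genes, 88.9% of the acetyl-CoA and fatty acid genes, 71.4% of the fibroblast markers and 50.0% of the adipocyte markers, against 16.4% of all genes. Supplemented steer 3 was lowest in the other 50.0% of the adipocyte markers. The share of supplemented steer 2 was 14.3% for SREBP and its control, 11.1% for efflux, esters and oxysterols and 12.5% for the isoprenoid branch.

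Markers of muscle fibres and of other cells, in 8 lists, were set beside these values, with a list's level in a steer given as the mean over its genes, each scaled by its SD. Of 13 adipocyte markers 12 were measured, PLIN1 having no probe set of its own, and all 12 were on the higher side in restricted steers (median 1.58 SDs; 10 of 12 after alignment). The groups did not overlap in 4 of the 12 (CFD, CIDEA, CD36 and PCK1), each higher in restricted steers, where the share of all genes is 4.15%. With quantile normalization 8 were higher and 1 lower. The adipocyte level ran from -0.949 to 0.111 SDs in supplemented and from -0.108 to 1.18 SDs in restricted steers, and the summed deposited values from 72.36 to 72.40 and from 72.39 to 72.42. After alignment the level did not overlap, at -0.905 to -0.164 SDs in supplemented and -0.0365 to 0.738 SDs in restricted steers. Supplemented steers 2 and 3 were the lowest as deposited, at -0.949 and -0.853 SDs.

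The muscle fibre level separated the diets as deposited, at 0.130 to 0.576 SDs in supplemented and -0.357 to -0.136 SDs in restricted steers. Its summed deposited values overlapped, from 124.89101 to 124.89137 in supplemented and from 124.89102 to 124.89149 in restricted steers. On the lower side in restricted steers were 8 of 11 markers, both as deposited and after alignment. Of all 9155 genes, 4623 were lower as deposited and 8163 after alignment. PYGM, muscle glycogen phosphorylase, at -4.13 SDs and MYH1, a fast myosin heavy chain, at -3.46 SDs did not overlap (limma adjusted p = 1 for both), though the 8 probe sets of MYH1 do not all run in 1 direction. After alignment the fibre level overlapped, at -0.287 to 0.944 against -0.518 to -0.108 SDs. Smooth muscle and pericyte markers were higher in restricted steers in 5 of 5 (4 of 5 after alignment), with a level of -0.580 to -0.392 SDs in supplemented and -0.162 to 1.67 SDs in restricted steers. That level did not overlap as deposited but did after alignment, at -0.696 to 0.115 against -0.224 to 1.055 SDs. The summed deposited values of this list overlapped, from 28.49219 to 28.49237 in supplemented and from 28.49224 to 28.49354 in restricted steers.

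Endothelial markers were on the higher side in 5 of 6 and in 3 of 6 after alignment, and the level overlapped (-0.635 to 0.0796 against -0.486 to 0.948 SDs). Of 7 fibroblast markers 2 were on the higher side, as deposited and after alignment, with supplemented steer 2 lowest at -0.886 SDs and supplemented steer 1 highest at 1.63 SDs. Macrophage markers were on the higher side in 2 of 5, red blood cell markers in 2 of 3 and nerve markers in 1 of 2, and the levels of these 3 lists overlapped between the diets. No marker is at 0 on this log scale. The part of any of these cells in the values of INSIG1, HMGCS1, ACAT2 and FDPS was not tested, and fewer cells of a type cannot be told apart from less RNA per cell in whole muscle.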

How the data were processed

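The values analysed are the authors' deposited log2 table, 24128 probe sets by 6 arrays; log base 2 is assumed from their range, and the background correction, normalization and summarization remain not given in the sources used here. Per the labels' protocols, 100 ng of total RNA was amplified and biotin-labelled for 3 prime arrays. After removal of 112 control probe sets, limma 3.58.1 (R 4.3.3; lmFit and eBayes, no trend) compared restricted with supplemented steers over 24016 probe sets, adjusted by Benjamini-Hochberg over all of them. Values were multiplied by 1e+09 first, a constant that leaves differences in SDs unchanged and keeps variances away from limma's numerical floors. Variances of probe sets with a wide range were hardly moderated (prior degrees of freedom 0.483, residual 4). Those of very narrow range were moderated more. The SE was 0.771 within-group SDs in INSIG1, 1.29 in FDFT1 set 3 and 1.35 in INSIG2. One probe set, that of highest mean, stood for each of 9155 genes in list counts. The fit was tested on simulated data. The labels and the table give no slide, scan or extraction batch. Gene symbols come from the platform annotation. Members and lists were chosen with earlier results of these data known, so lists carry no test. Genes named beside the members were, per list, the 2 of smallest unadjusted p, a few regulators whatever their p, and the nearest in profile. MBTPS2, SCD, ACSS2, the markers named singly and the profile of supplemented steer 2 were singled out after their values were seen, and the counts of lowest steers and of non-overlapping genes and the marker levels after alignment were added then. The number of arrays limits precision. Promoter and protein sequences were not used here.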

Additional observations from a re-analysis of the deposited data

How the results depend on the processing

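Across 14 alternatives none of the 9 probe sets was called, and of 118 member values 20 changed sign. INSIG1 and FDPS kept their direction in all 14. Filters on the mean value and a variance trend are among the 14 and cannot change a sign. After median alignment of the arrays the difference was -0.75 SDs in HMGCS1 set 1, -0.80 in SQLE, -0.14 in FDFT1 set 1, -0.74 in FDFT1 set 3 and -0.38 in ACAT2. The list medians were then -0.50 SDs from acetyl-CoA to farnesyl diphosphate and -0.70 SDs from squalene to cholesterol, against -0.74 SDs over all genes. With quantile normalization, which left 15456 probe sets equal on all arrays and gave a value for 5 of the 9, HMGCS1 set 1 was at -0.82 and set 2 at -1.63 SDs. Medians were then -0.82 SDs for the cholesterol genes (1 higher, 2 lower) and -0.29 from acetyl-CoA to farnesyl diphosphate (2 higher, 2 lower). They were 0.82 for SREBP control (4 higher, 1 lower) and -0.58 for uptake (0 higher, 2 lower). These medians leave out the genes that were equal on all arrays. Values were rounded to 9 decimals at this step, and many of the rest were nearly all tied. HMGCS1 set 1 and FDPS were both at -0.82 SDs, and FDFT1 set 2, SCAP and SREBF2 all at 0.82 SDs. Such sizes and signs, and the medians that rest on them, are not read as differences between the diets. Over the array 35 probe sets were called. With age as a covariate HMGCS1 set 1 was at -4.42, SQLE at -1.004 and FDFT1 set 2 at -0.0215 SDs, and limma called 0 probe sets, 983 being under an unadjusted p of 0.05. With array weights SQLE was at -0.0381 SDs. Leaving out 1 steer gave from -0.17 to 1.03 SDs in HMGCS1 set 1, -0.41 to 2.41 in SQLE, -1.62 to 0.84 in FDFT1 set 1 and -0.13 to 1.19 in FDFT1 set 2. The cholesterol gene median ran from 0.49 SDs without supplemented steer 3 to 1.65 SDs without supplemented steer 1, and the count of calls was 2 without supplemented steer 3. Replicate numbers are shared between the diets, but same-numbered steers deviated together only weakly, with correlations over probe sets from 0.0151 to 0.0374, each the highest for its steer. With the replicate number as a block, limma called 0 probe sets in place of 1 (1192 under an unadjusted p of 0.05), and all 9 probe sets kept their direction.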
